A study of Mus musculus with 2 samples.

Results

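T and NK cells were picked out by their own transcripts in single-cell RNA-seq of prostate tumor tissue from DoubleTg and TripleTg mice. A barcode was taken as a T or NK cell if it had over 200 and under 7000 genes, under 15% mitochondrial UMIs (unique molecular identifiers, each standing for 1 captured mRNA molecule), at least 1000 UMIs in all and at least 1 UMI of Ptprc, the pan-leukocyte antigen CD45. It also needed a UMI of at least 2 of the 5 genes Cd3d, Cd3e, Cd3g, Cd2 and Nkg7, and under 10 UMIs of C1qa, C1qb and C1qc, the macrophage complement genes, per 10,000. This rule found 502 cells among the 21564 barcodes of both libraries. In the DoubleTg library it found 372 of the 10598 cells within the limits on genes and mitochondrial UMIs, and in the TripleTg library 130 of 9492. Cells with at least 1 UMI of Cd3d, Cd3e or Cd3g were called Cd3-positive, and members with none of the 3 were called Cd3-negative. By the rule, every Cd3-negative member held UMIs of both Cd2 and Nkg7, so the levels of the 5 genes, of Ptprc and of the C1q genes describe the choice and are not findings. Every other gene was read from the same cells, so all values below are descriptions without a test.

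DoubleTg mice carried a ubiquitous human HGF transgene and a human MET transgene switched on in prostate epithelium by the probasin-driven PBCre4 recombinase (hHGFtg:H11hMET/+:PBCre4). TripleTg mice carried the same alleles plus 1 Ctnnb1 allele whose exon 3 the same Cre removes, which stabilises β-catenin in that epithelium (hHGFtg:H11hMET/+:Ctnnb1L(Ex3)/+:PBCre4). The DoubleTg tissue was labelled an adenocarcinoma and the TripleTg tissue a carcinoma. There was 1 library of each genotype, so genotype, animal, tumor stage and dissociation cannot be told apart. Sequencing was done in 2 sets on different littermates, and which set gave which library is not given in the sources used here. The mice were male and of a mixed background that included C3H SCID stock, whose scid mutation impairs antigen receptor rearrangement when both copies carry it. Whether it was homozygous in the sequenced animals, and their age, are not given in the sources used here. In dissociated tissue, fewer cells of a type and less RNA per cell cannot be told apart from the summed UMIs.

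T cells read antigen through the T cell receptor, whose signal is carried by the CD3 chains encoded by Cd3d, Cd3e and Cd3g and by kinases such as Lck and Zap70. CD8 T cells kill through granzymes and perforin, CD4 T cells mainly help or regulate other immune cells, and natural killer (NK) cells kill without rearranged receptors, guided by activating and inhibitory surface receptors. T cells that settle in epithelial tissue typically express Cd69, Itgae and Cxcr6, and T cells under persistent stimulation express checkpoint receptors such as PD-1 (Pdcd1). Cd3g (chr9:44969572-44980431), Cd3d (chr9:44981786-44987339) and Cd3e (chr9:44998740-45009627) are neighbours on mouse chromosome 9 in GRCm38. The T cell receptor constant chains were not analysed here, so αβ and γδ T cells could not be separated.

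The members of the DoubleTg library matched their label and most of those of the TripleTg library did not look like lymphocytes alone. The 5 epithelial markers (Epcam, Krt8, Krt18, Krt5 and Cdh1) made up a median of 6.05 per 10,000 UMIs in the DoubleTg Cd3-positive cells and 75.0 in the TripleTg Cd3-positive cells, against 92.1 and 100.2 in the epithelial cells of the 2 libraries (Epcam present, Ptprc absent, 8101 and 7596 cells). The TripleTg Cd3-positive cells were also as deep as epithelial cells, with a median of 23480 UMIs against 22717, whereas the DoubleTg ones had 6667 against 23156. An Epcam UMI was found in 59.1% of DoubleTg and 89.2% of TripleTg members. Members under 20 epithelial marker UMIs per 10,000, a limit set after these values were seen, were 322 of 372 in DoubleTg (86.6%, exact binomial 95% interval 82.7 to 89.9) and 28 of 130 in TripleTg (21.5%, 14.8 to 29.6). In each library, 14 members lay within 5 per 10,000 of this limit. All binomial, Poisson and ratio intervals here cover counting error only. Doublets of a T cell with an epithelial cell and T cells with much captured epithelial RNA were not separated, and the part of either in the values below was not tested. The comparisons of Cd3-positive cells between the genotypes are therefore given with all members and with the low-epithelial members alone, which left 299 Cd3-positive and 23 Cd3-negative DoubleTg cells and 27 and 1 TripleTg cells.

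**Figure D1:**
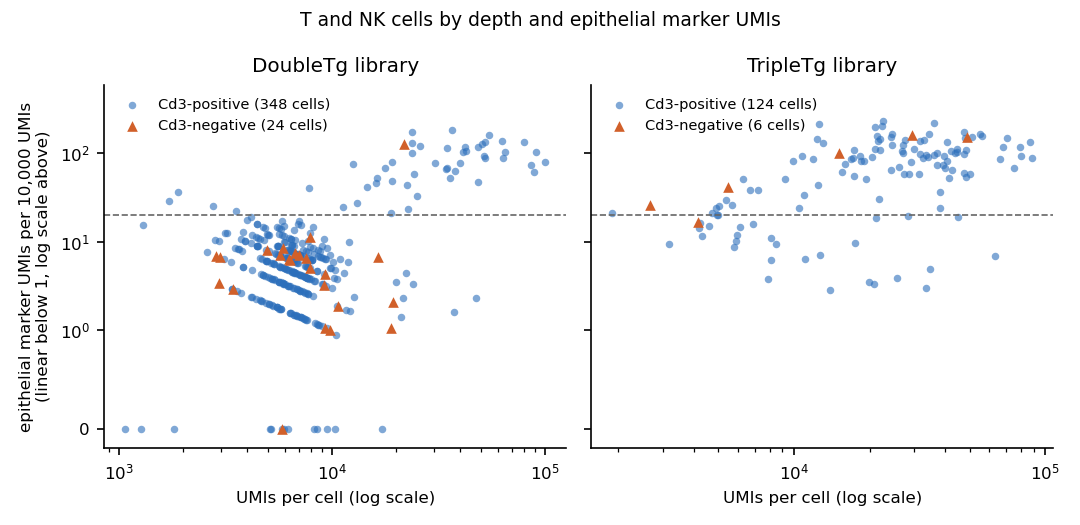
Each point is 1 T or NK cell, with its total UMIs on the x axis (log scale) and its epithelial marker UMIs per 10,000 on the y axis (linear below 1, log scale above), circles for Cd3-positive and triangles for Cd3-negative cells. The dashed line is 20 per 10,000, below which 322 of the 372 DoubleTg cells and 28 of the 130 TripleTg cells lay.

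Members were 3.51% of the DoubleTg cells within the limits (3.17 to 3.88) and 1.37% of the TripleTg cells (1.15 to 1.62). With the low-epithelial members alone these shares were 3.04% and 0.295%. Cd3-positive cells made up 348 of 372 DoubleTg members (93.5%) and 124 of 130 TripleTg members (95.4%), which left 24 and 6 Cd3-negative cells. All 5 rule genes were detected in 129 DoubleTg and 22 TripleTg members. Just outside the rule lay 53 DoubleTg and 38 TripleTg cells with exactly 1 of the 5 genes, and 47 and 46 cells that lacked only a Ptprc UMI. The highest C1q level inside was 6.60 per 10,000 in DoubleTg and 2.01 in TripleTg, and the lowest among the 2 and 9 cells left out by this limit alone was 12.8 and 26.1. The libraries shared 30 barcodes, of which 3 belonged to DoubleTg members and none to TripleTg members.

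The DoubleTg Cd3-positive cells were mostly activated T cells with chemokine, checkpoint and tissue-residency transcripts. In the 299 low-epithelial cells, Ccl5, a chemokine of effector lymphocytes, stood at 7090 CPM (UMIs per 1000000 UMIs of the group) and was detected in 80.6% of cells, against 7.12% of the deeper DoubleTg epithelial cells. Rgs1, a brake on chemokine receptor signalling in tissue T cells, stood at 2875 CPM and was found in 98.3% of cells. Cxcr6, a tissue-homing receptor, was found in 79.6%, Tnfrsf9, the activation-induced receptor 4-1BB, in 74.6%, Pdcd1 in 60.9% and Cd69 in 56.5%, each against at most 1.01% of epithelial cells. Gzmb, which encodes the protease granzyme B, was found in 39.5% of cells at 577 CPM. Its partner Prf1, which encodes the pore-forming perforin, was found in only 10.7%, with 44 UMIs against 1210.

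Set against the epithelial cells of the same library, 28.6% of the 3456 genes compared were at least 2-fold higher in these Cd3-positive cells and 23.1% at least 2-fold lower. A gene was compared where it reached 50 CPM in either group, and sums under 3 UMIs were set to 3. All 11 compared genes of the T cell receptor signalling list, which includes Lck, Zap70, Lat, Cd28 and Cd6, were higher, with a median log2 ratio of 9.43. All 5 compared checkpoint genes (median 10.54) and all 7 compared chemokines and receptors (median 8.75) were higher as well. In the epithelial cells the whole signalling list stood at 5.16 CPM, so the filter fixed this direction for all its compared genes. It also fixed the direction of any checkpoint gene, chemokine or receptor under 50 CPM in those cells. These counts therefore describe levels only. Against the 254 macrophages, where 26.7% of 3317 genes were higher and 20.3% lower, 10 of the 11 signalling genes were higher. The whole signalling list stood at 67.1 CPM in the macrophages, so nearly all of its genes were compared only through the Cd3-positive cells. Chemokines and receptors split there into 3 higher (Ccl5, Xcl1 and Cxcr6) and 3 lower (Ccl3, Ccl4 and Ccr7) of 8, and Ccl5 stood at 2050 CPM in the macrophages.

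CD8 T cells were the largest gated group of the DoubleTg library. A UMI of Cd8a or Cd8b1, the CD8 co-receptor chains, was present in 206 of the 348 Cd3-positive cells (59.2%, 53.8 to 64.4), and of Cd4 in 31 (8.91%, 6.13 to 12.4). Among DoubleTg epithelial cells these shares were 0.321% and 0.185%. After each cell was thinned to 2000 UMIs, the shares were 38.0% and 4.09%. Foxp3, the regulatory T cell factor, was found in 5 Cd3-positive cells. Within the 299 low-epithelial cells, 170 had Cd8 UMIs only, 21 Cd4 only, 7 both and 101 neither, and the median depths of the first, second and last of these were 6505, 4445 and 6445 UMIs.

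The Cd8 cells were the main carriers of granzymes, Ccl5 and PD-1, and the Cd4 cells carried co-stimulatory receptors with little granzyme. Ccl5 was detected in 95.9% of the 170 Cd8 cells, 47.6% of the 21 Cd4 cells and 60.4% of the 101 cells with neither, at 8709, 4791 and 4495 CPM. Gzmb was detected in 45.3%, 4.76% and 37.6% of them. Pdcd1 was found in 68.8% of the Cd8 cells and 81.0% of the Cd4 cells at near-equal levels of 616 and 623 CPM, and in 41.6% of the cells with neither at 302 CPM. These values place most PD-1 transcripts in cells with a CD8 or CD4 co-receptor.

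Granzymes and checkpoints overlapped only in part in the Cd8 cells. Of the 170 cells, 51 held UMIs of both Gzmb and Pdcd1, 26 of Gzmb only and 66 of Pdcd1 only. Cxcr6 and Pdcd1 were found together in 93 cells, and Pdcd1 with Lag3, a further checkpoint receptor, in 29. Only 11 cells held both Gzmb and Prf1, while 66 held Gzmb without Prf1. Itgae, the αE integrin that binds E-cadherin, was found in 34.7% of the Cd8 cells (83.4 CPM), 4.76% of the Cd4 cells and 24.8% of those with neither. A cell without a UMI of a gene may still have expressed it at this depth.

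In the Cd4 cells, 15.4% of 3473 genes were at least 2-fold higher than in the Cd8 cells and 7% at least 2-fold lower. Tnfrsf4, the co-stimulatory receptor OX40, stood at 390 CPM in the Cd4 cells and 5.78 CPM in the Cd8 cells (log2 ratio 6.08, interval 4.95 to 7.45), and was found in 66.7% and 3.53% of them. Tox, a factor of exhausted and helper T cells, and Cd5, an inhibitor of receptor signalling, were higher by log2 ratios of 1.70 and 2.14. Icos, a further co-stimulatory receptor, stood at 768 against 271 CPM. Gzmb had 3 UMIs, all in 1 Cd4 cell, against 908 (interval of the log2 ratio -7.59 to -3.76), and Gzma had 8 against 832. By list, checkpoint genes were 3 higher and 1 lower of 7, cytotoxic genes 2 higher and 5 lower of 9, and NK receptors and factors 1 higher and 5 lower of 9. S phase and mitosis genes were higher in 9 of 9, but 28 of the 40 Mki67 UMIs lay in 1 cell, and 2 of the 21 Cd4 cells held at least 3 of 12 proliferation genes after thinning. In the same way, all 26 Fcer1g and all 12 Tyrobp UMIs of the Cd4 cells came from 1 cell, and 36 of the 73 Ccr7 UMIs from 1 cell.

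Cells with neither co-receptor carried more transcripts of innate-like lymphocytes. Between the Cd8 cells and these 101 cells, 3.65% of 2932 genes were at least 2-fold higher and 3.65% at least 2-fold lower. Of the 9 compared NK receptors and factors, 3 were lower in the Cd8 cells and none higher, namely Tyrobp and Fcer1g, signalling adaptors of activating receptors, and Klrk1, which encodes NKG2D. Tyrobp stood at 45.4 CPM in the Cd8 cells and 472 CPM in the cells with neither, and was found in 6.47% and 40.6%. Fcer1g stood at 165 and 858 CPM, and Klrk1 at 64.4 and 276 CPM. Ncr1 or Klrb1c, classical NK markers, was found in 2 of the 170 Cd8 cells and 14 of the 101 cells with neither, whose median of Cd3 UMIs was 14 and 6, and the part of NK cells with few Cd3 UMIs was not tested. Il7r, the interleukin-7 receptor, was found in 15.9% of the Cd8 cells and 47.5% of those with neither (log2 ratio -2.79), and Ccr2, an inflammatory chemokine receptor, in 5.88% and 22.8%. Without the 1 cell of each group with most UMIs of the gene, the log2 ratios were -3.52 for Tyrobp, -2.46 for Fcer1g, -2.28 for Klrk1 and -2.95 for Il7r, against -3.38, -2.38, -2.10 and -2.79 with it.

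A few cells with neither co-receptor held genes of interleukin-17-producing γδ or innate-like T cells. Il23r, the interleukin-23 receptor, had 18 UMIs in 12 of these cells, Il17a 15 UMIs in 5 cells and Cd163l1, a scavenger receptor known from γδ T cells, 35 UMIs in 8 cells. The Cd8 and Cd4 cells had 0 UMIs of each. In DoubleTg epithelial cells Il23r was found in 0.235%, Il17a in 0.0123% and Cd163l1 in 0.0247%. In contrast, Gzmk, a granzyme of memory CD8 T cells, was found in 32.4% of the Cd8 cells and in 4 of the 101 cells with neither (log2 ratio 2.71, interval 1.67 to 3.96). Cd6, a co-receptor of T cell activation, was likewise higher in the Cd8 cells, at 240 against 85.1 CPM.

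**Figure D2:**
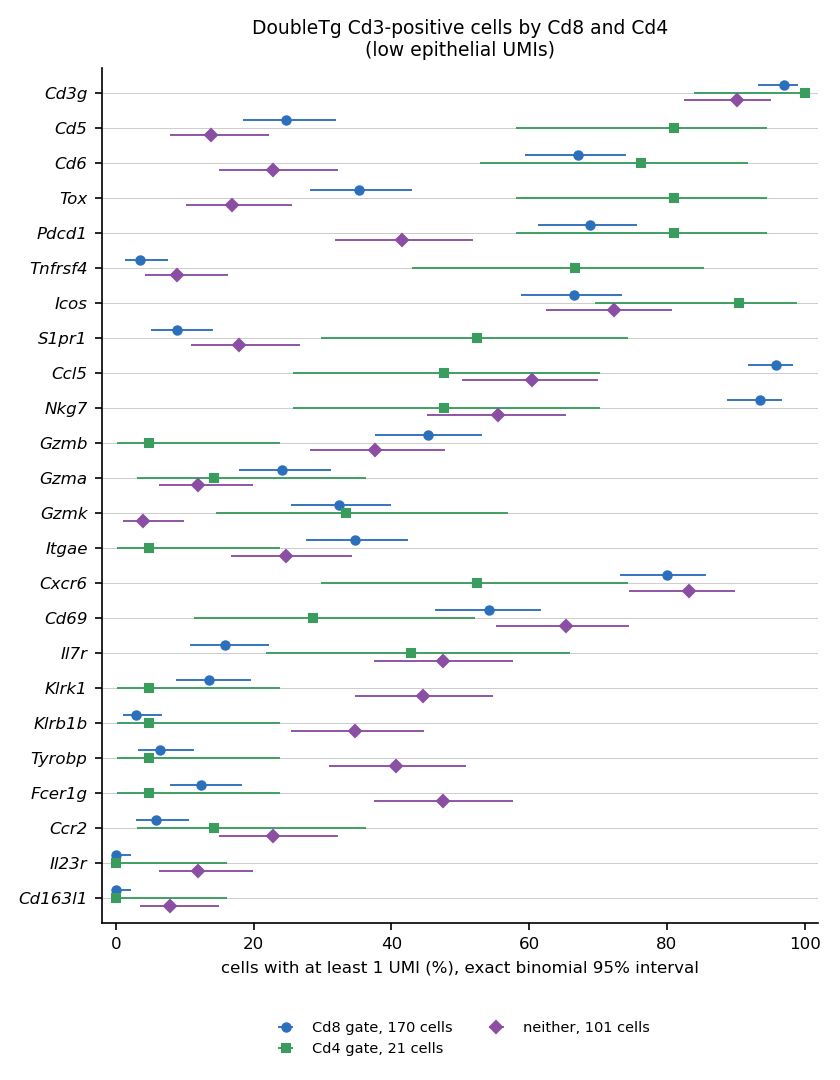
Percentage of low-epithelial DoubleTg Cd3-positive cells with at least 1 UMI of each of 24 genes, for 170 Cd8 cells (circles), 21 Cd4 cells (squares) and 101 cells with neither (diamonds), with exact binomial 95% intervals. Ccl5 and Gzmb were most frequent in the Cd8 cells, Tnfrsf4, Tox and Cd5 in the Cd4 cells, and Tyrobp, Fcer1g, Klrk1 and Il23r in the cells with neither.

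The 24 Cd3-negative DoubleTg cells had the transcripts of NK cells. None held a UMI of Cd8a, Cd8b1, Cd4 or Foxp3 (0 of 24, which allows up to 14.2% of cells with a UMI, exact binomial, and sets no limit on cells expressing these genes). Their median depth was 7295 UMIs, against 6667 in the Cd3-positive cells. Of the 19 NK receptors and factors with a feature, a Cd3-negative cell held a median of 9 (lowest 5, highest 13) and a Cd3-positive cell a median of 3 (0 to 12), against 0 in epithelial cells. After thinning to 2000 UMIs the medians were 5 and 2. Ncr1 or Klrb1c, the classical NK markers NKp46 and NK1.1, were found in 8 of the 24 cells (33.3%, 15.6 to 55.3) and in 19 of the 348 Cd3-positive cells (5.46%).

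Among all members, 9.2% of 3184 genes were at least 2-fold higher in the Cd3-negative cells and 12.7% lower, and 13 of 15 compared NK receptors and factors were higher (median 2.03). Epithelial UMIs differed between these groups, with all 8 epithelial genes lower in the Cd3-negative cells (median -1.58), and their part in the result was not tested. In the low-epithelial cells, where 6.41% of 3103 genes were higher and 6.99% lower, none of the 6 compared epithelial genes was past 2-fold, and 10 of 15 NK receptors and factors were still higher (median 1.56, against 0.04 for all genes). The summed level of this list was 49.5 per 10,000 in the Cd3-negative and 21.6 in the Cd3-positive cells. All values in the next paragraphs come from these low-epithelial cells.

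Adaptors, receptors and factors of NK cells led the difference. Fcer1g and Txk, a Tec-family kinase, were found in all 23 Cd3-negative cells, at 1155 and 920 CPM, and in 23.7% and 70.9% of the Cd3-positive cells, at 384 and 340 CPM. Tyrobp stood at 535 against 180 CPM (log2 ratio 1.57, interval 1.24 to 1.89) and Klrk1 at 433 against 134 CPM (1.70, 1.32 to 2.06), each found in 87.0% of the Cd3-negative cells. Irf8, a transcription factor used by NK and myeloid cells, was in all 23 cells at 1615 CPM, against 22.4% of Cd3-positive cells at 200 CPM. Klra4 (chr6:130043731-130067271) and Klra8 (chr6:130115226-130129898), receptor genes of the Ly49 family, had 32 UMIs in 5 cells and 12 UMIs in 7 cells. Both had 0 in the 299 Cd3-positive cells, so they were higher by log2 ratios of at least 6.90 and 5.49 with 3 UMIs as the floor per group. Klra genes are near-identical copies that vary between mouse strains, so how reads were split between them is uncertain. Klrc1, Klrd1 and Il2rb, which activated CD8 T cells also express, were not past 2-fold (log2 ratios -0.13, 0.58 and 0.18).

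Killing genes were split between the groups. Gzma stood at 1808 CPM in the Cd3-negative and 571 CPM in the Cd3-positive cells (log2 ratio 1.66, or 1.10 without the 1 cell of each group with most UMIs), and Prf1 at 85.6 against 21.0 CPM, found in 39.1% and 10.7% of cells. Gzmb did not follow them, at 417 against 577 CPM (log2 ratio -0.47). Of 8 compared cytotoxic genes, 2 were higher and 1 lower, the latter Gzmk with 0 UMIs against 119, which is a log2 ratio of -1.82 or lower. Gzmd, with 16 UMIs, came from 1 Cd3-negative cell. Xcl1, a chemokine that attracts dendritic cells, was found in 73.9% of the Cd3-negative and 40.1% of the Cd3-positive cells but was not past 2-fold (0.87, 0.57 to 1.15). Eomes, an NK and memory T cell factor, was higher, at 112 against 38.2 CPM, and so was Kit, the stem cell factor receptor, at 332 against 80.2 CPM.

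Genes of T cell receptor signalling and checkpoints were lower in the Cd3-negative cells. Of 11 compared signalling genes, 8 were lower and none higher (median -1.12). Lat, the adaptor that relays the receptor signal, had 1 UMI in the 23 cells against 329 in the 299 (interval of the log2 ratio -10.18 to -2.39), and Cd6 1 against 422 (-10.54 to -2.75), while Lck, which NK cells use too, was near equal at 150 against 175 CPM. Of 5 compared checkpoint genes, 3 were lower. Pdcd1 had 2 UMIs, both in 1 cell, against 1111 in 60.9% of the Cd3-positive cells (-8.68 to -3.77). Cxcr6 was lower, at 144 against 435 CPM, and Ccl4 had 4 UMIs against 433. Ccr7 was higher only through 1 cell, with a log2 ratio of 1.65 that became -1.08 without it.

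Some leading differences came from single cells with transcripts of another type. Acta2 and Tagln, smooth muscle genes, were lower in the Cd3-negative cells because 1 Cd8 cell held 1170 of the 1173 Acta2 and 982 of the 990 Tagln UMIs of the Cd3-positive group. One Cd3-negative cell held all 11 UMIs of Camp, a neutrophil granule gene, and 29 S100a9 UMIs were found in 1 cell. Leaving out such cells gene by gene did not turn the direction of Fcer1g, Tyrobp, Klrk1, Txk or Irf8. For Pdcd1 and Lat, whose Cd3-negative UMIs lay in 1 cell each, this step could not turn the direction and is no check.

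**Figure D3:**
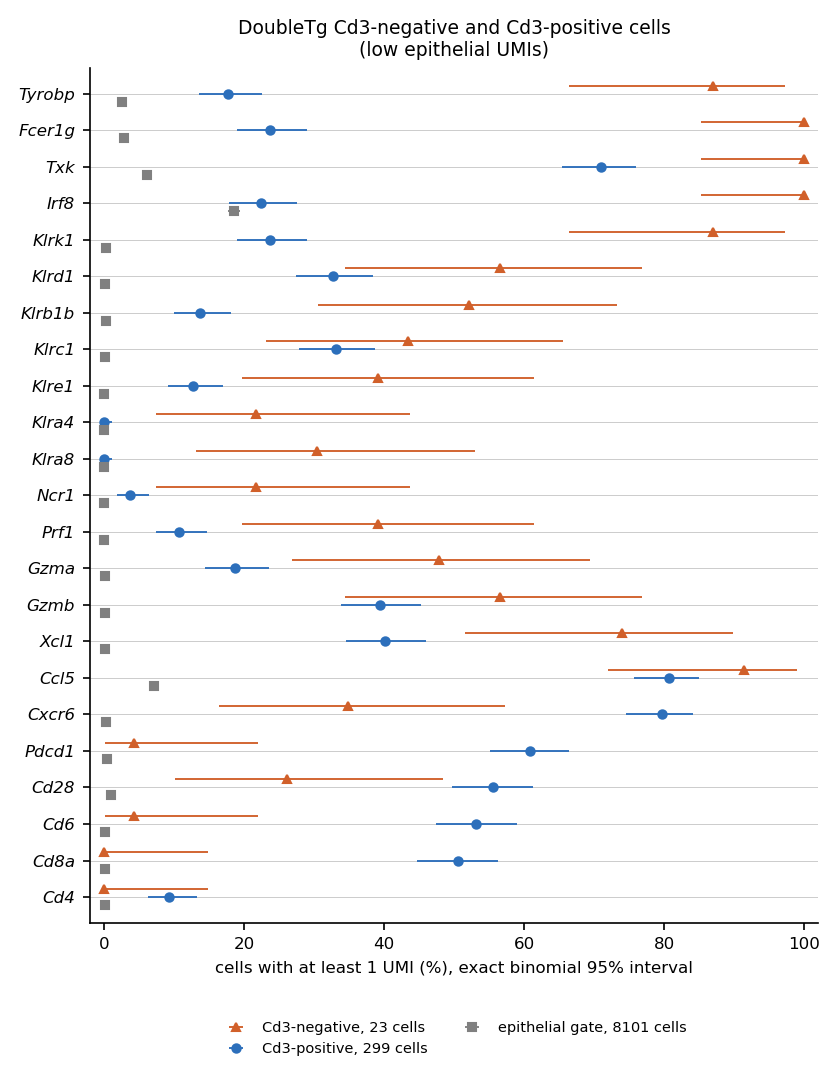
Percentage of cells with at least 1 UMI of each of 23 genes in low-epithelial DoubleTg members, for 23 Cd3-negative cells (triangles) and 299 Cd3-positive cells (circles), with the 8101 DoubleTg epithelial cells (squares) as background and exact binomial 95% intervals. Fcer1g, Txk and Irf8 were in all Cd3-negative cells, and Pdcd1 and Cd6 were in 4.35% of them against 60.9% and 53.2% of the Cd3-positive cells.

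The TripleTg Cd3-positive cells differed little from the epithelial cells of their own library. Only 3.51% of 2565 genes were at least 2-fold higher than in those cells and 0.663% at least 2-fold lower, and 2 of 8 epithelial genes were lower (median -0.23). The genes that were higher included lymphocyte genes, among them 1 of 1 compared T cell receptor signalling gene (Ptpn22, a phosphatase that restrains receptor signalling), 2 of 2 compared NK receptors and factors (Fcer1g and Il2rb) and 3 of 4 cytotoxic genes. Ccl5 stood at 461 CPM in them and 10.1 CPM in the epithelial cells, and Gzma at 129 and 1.20 CPM. Both compared neutrophil genes, S100a8 and S100a9, were higher, but without the largest cells their log2 ratios were -0.75 and -1.63.

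TripleTg Cd3-positive cells had lower levels of most compared T cell effector genes than the DoubleTg ones. Among all members, 11.2% of 3137 genes were at least 2-fold higher in TripleTg and 15.6% at least 2-fold lower, with a median log2 ratio of -0.10. Chemokines and receptors were lower in 6 of 6 compared genes (median -3.25), checkpoint genes in 4 of 4 (-3.04), residency and activation genes in 4 of 6, with 1 higher (-2.68), NK receptors and factors in 8 of 8 (-2.46) and T cell receptor signalling genes in 8 of 9 (-2.12). Cytotoxic genes were 1 higher and 5 lower of 7 (-1.98). Regulatory T genes were lower in 3 of 3 (-1.85), type 2 innate lymphoid genes were 2 higher and 1 lower of 3, and dissociation and immediate early genes 1 higher and 1 lower of 10 (0.06). Epithelial genes were 2 higher and none lower of 8 (0.51). The part of epithelial UMIs in these differences was not tested.

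The single genes of these groups showed the same direction. Ccl5 stood at 4428 CPM in the DoubleTg and 461 CPM in the TripleTg Cd3-positive cells (log2 ratio -3.26, interval -3.34 to -3.19), and was found in 80.7% and 66.1% of cells. Gzmb stood at 350 against 30.9 CPM (40.2% and 16.9% of cells) and Pdcd1 at 328 against 27.1 CPM (60.6% and 32.3%). Cxcr6 stood at 270.5 against 27.9 CPM and Cd69 at 145 against 11.2 CPM. All were above their level in TripleTg epithelial cells, where Ccl5 stood at 10.1 CPM and Gzmb, Pdcd1, Cxcr6 and Cd69 at 0.142 to 0.343 CPM.

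The low-epithelial cells gave the same directions for most lists. The TripleTg ones still held more UMIs of other cell types than the DoubleTg ones. Macrophage genes made up 37.1 against 0.673 per 10,000 UMIs (median per cell 6.22 against 0). Fibroblast genes made up 10.4 against 1.98 per 10,000 (median 1.17 against 0). The part of these UMIs in the ratios was not tested. Among 27 TripleTg and 299 DoubleTg Cd3-positive cells, 16% of 3230 genes were higher and 25.8% lower, with a median of -0.36. Checkpoint genes were lower in 5 of 5 (median -3.07), chemokines and receptors in 6 of 7 (-3.16), T cell receptor signalling genes in 10 of 11 (-2.01) and the 2 CD8 chains in 2 of 2 (-2.89). The filter at 50 CPM fixed the direction of any gene below it in TripleTg here too. Ccl5 stood at 7090 against 706 CPM, Pdcd1 at 530 against 55.7 CPM and Xcl1 at 346 against 11.6 CPM. Gzmb stood at 577 against 27.9 CPM, the latter from 12 UMIs of which 9 lay in 1 cell (log2 ratio -4.37, or -6.27 without the largest cells). NK receptors and factors were lower in 6 of 8 (-1.98), against 8 of 8 among all members. The exceptions were Tyrobp, at 190 against 180 CPM (log2 ratio 0.08), and Fcer1g, at 239 against 384 CPM (-0.68). Ncr1 had 0 UMIs in the 27 TripleTg and 13 in the 299 DoubleTg cells, too few to give a direction. Naive and recirculating genes had a median of 0.12 with 1 of 5 lower, and interferon-stimulated genes, lower in 3 of 3 among all members, were lower in 1 of 3 (-0.18).

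**Figure D4:**
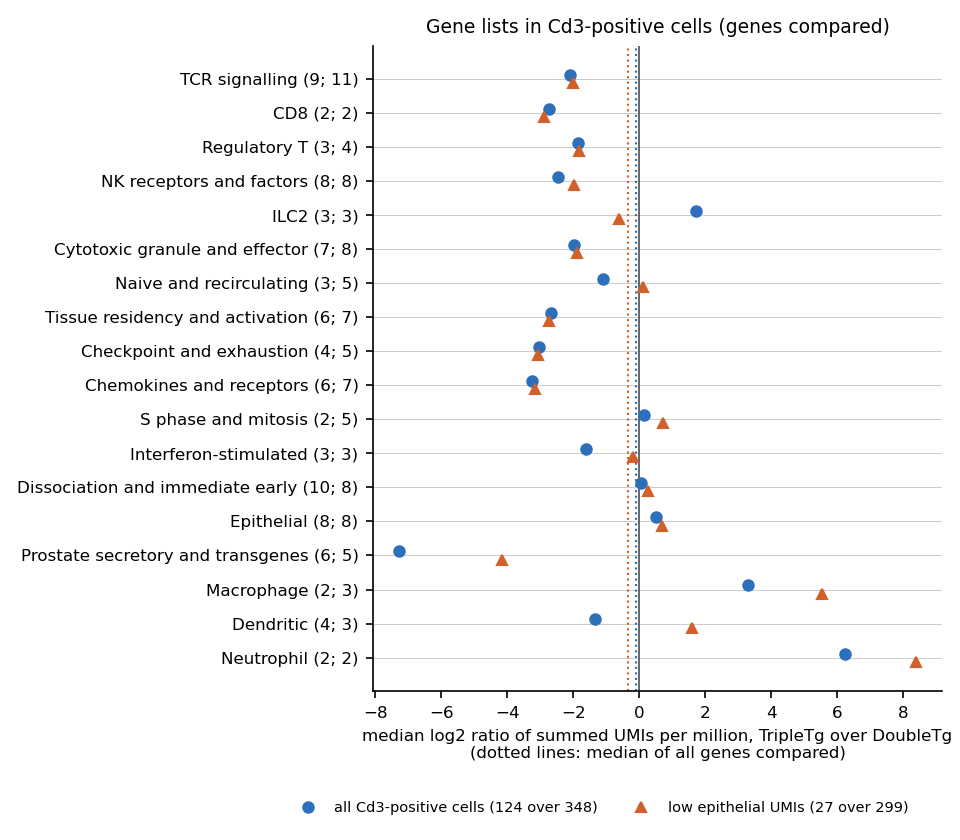
Median log2 ratio of summed UMIs (CPM), TripleTg over DoubleTg, of the compared genes of 18 lists, for all Cd3-positive cells (circles, 124 over 348 cells) and low-epithelial ones (triangles, 27 over 299), with the median of all compared genes as dotted lines at -0.10 and -0.36. Chemokine, checkpoint, residency, CD8 and signalling lists lay at -2 or below for both sets of cells, while the neutrophil list lay above 3. In that list, 1 TripleTg cell held 1718 of the 1754 S100a8 and 2621 of the 2652 S100a9 UMIs of the TripleTg members.

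Several low-epithelial TripleTg values rested on single cells. One cell held 14218 of the 17388 Svs4 UMIs and 21160 Svs5 UMIs, both seminal vesicle secretory genes. One cell held 1718 S100a8, 2621 S100a9 and 1214 Camp UMIs, genes of neutrophils. One held 273 Acta2 UMIs, and 1 held 315 of the 418 Lyz2 UMIs, a macrophage and neutrophil gene. Of the 89 Gzma UMIs 98.9% lay in 1 cell, as did 72.2% of the Il7r and 70.7% of the Tyrobp UMIs. The log2 ratio of Gzma was -1.47 with and -6.02 without the largest cells, that of Il7r 0.12 and -1.64, and that of Tyrobp 0.08 and -1.60, so these 3 genes have no stable level in 27 cells. For Ccl5 (-3.33 and -3.81), Pdcd1 (-3.25 and -3.64) and Cxcr6 (-3.16 and -3.61) the ratio moved less.

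Scaling to T cell receptor signalling genes removed the epithelial UMIs from the denominator. The 12 genes of that list gave 4572 UMIs in the DoubleTg and 1008 UMIs in the TripleTg Cd3-positive cells, or 1181 and 296 CPM, against 5.16 and 12.1 CPM in the epithelial cells of the 2 libraries. Per 1000 such UMIs, a scale added after the data were seen, most activation and effector genes remained lower in TripleTg. The log2 ratio was -1.70 for Cd69 (interval -2.21 to -1.23), -1.61 for Tnfrsf9, -1.61 for Pdcd1 (-1.93 to -1.30), -1.51 for Gzmb (-1.81 to -1.22), -1.28 for Cxcr6 and -1.27 for Ccl5 (-1.35 to -1.20). In these units Ccl5 was 3749 in DoubleTg and 1555 in TripleTg, and Gzmb 296 and 104. The chains Cd8a and Cd8b1 were lower by less, at -0.99 and -0.48. In the low-epithelial cells, with 210 TripleTg and 4023 DoubleTg signalling UMIs, the log2 ratio was -1.09 for Cd69, -1.27 for Pdcd1 (-1.92 to -0.69), -1.18 for Cxcr6 and -1.35 for Ccl5 (-1.52 to -1.19). Others were not lower there, with -0.09 for Lag3 (-1.74 to 1.18), 0.60 for Ifng, which encodes interferon-γ (-1.07 to 1.90), 0.51 for Gzma and 2.40 for Ccl3, an inflammatory chemokine. For the last 2, 88 of the 89 Gzma UMIs and all 19 Ccl3 UMIs of the TripleTg cells lay in 1 cell each.

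For other genes no decrease was resolved. Itgae (-0.23, -0.82 to 0.31), Cd4 (-0.47, -1.40 to 0.35), Tigit, a checkpoint receptor (0.30, -0.60 to 1.12) and Prf1 (-0.31, -1.61 to 0.79) had intervals that included 0, which does not show equal levels. The same held for Ifng (-0.87, -1.92 to 0.04) and Ccl3 (0.60, -0.13 to 1.28). Gzma stood at 0.24 (0.08 to 0.39) with all cells and at 0.04 (-0.14 to 0.22) without the 1 cell of each group with most UMIs, and Il7r at 0.72 (0.44 to 0.99) and 0.09 (-0.26 to 0.42), so neither had a direction that held without single cells. Ccr7, the lymph node homing chemokine receptor, was higher at 1.97 (1.59 to 2.34), at 2.26 without the largest cells and at 2.27 in the low-epithelial cells. It also stood at 239 CPM in the DoubleTg macrophages, whose part in this value was not tested. Tcf7, Lef1, Klf2, Gata3 and Havcr2 could not be read in this way with all members. The TripleTg epithelial cells expressed them too, for example Tcf7 at 26.1 CPM against 26.5 CPM in the members and Gata3 at 231 against 219 CPM. In the low-epithelial TripleTg cells, Lef1, a factor of naive and memory T cells, stood at 41.8 CPM against 7.12 CPM in the epithelial cells, and its ratio on this scale was 3.34 (2.43 to 4.21) from 18 UMIs in 9 cells. Klf2, a factor of recirculating T cells, stood at 97.5 against 33.5 CPM, with a ratio of 2.15 (1.63 to 2.64). Endothelial genes made up 2.99 per 10,000 UMIs in these TripleTg cells and 0.501 in the DoubleTg ones. Their part in the Klf2 value was not tested. Tcf7 and Havcr2 were not resolved in the low-epithelial cells, at 0.60 (-0.89 to 1.79) and 0.42 (-3.26 to 1.77). Gata3 stood at 1.37 (0.58 to 2.09), or 0.79 (-0.25 to 1.68) without the largest cells.

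**Figure D5:**
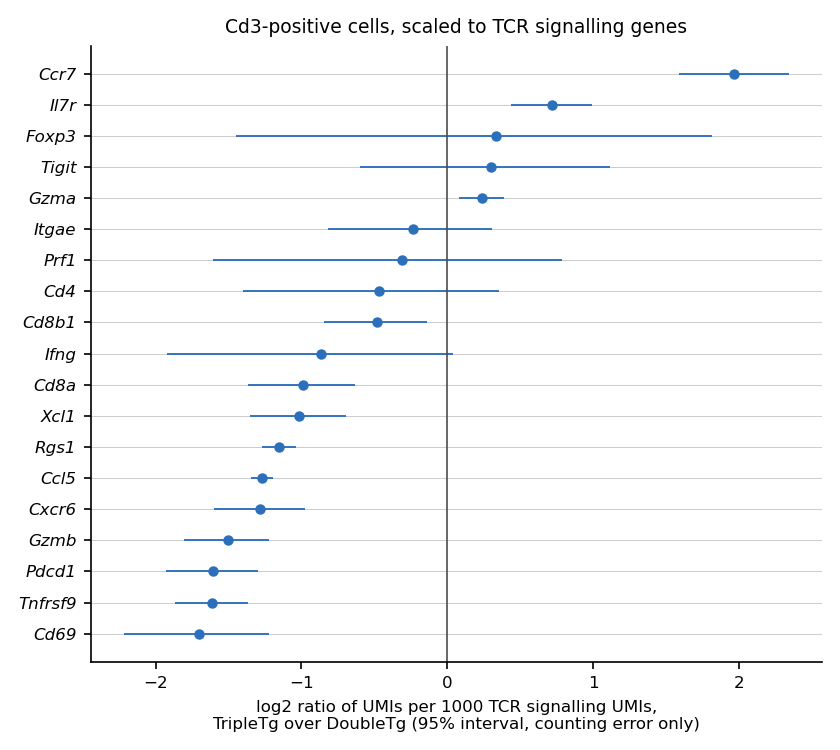
Log2 ratio, TripleTg over DoubleTg, of UMIs per 1000 T cell receptor signalling UMIs in Cd3-positive cells for 19 genes, with 95% counting intervals. The interval lay below 0 for 10 genes, among them Cd69, Pdcd1, Gzmb and Ccl5, and above 0 for 3 genes, Ccr7, Il7r and Gzma, while only the interval of Ccr7 stayed above 0 without the largest cells.

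Cd3-positive cells with epithelial-level keratin UMIs in both libraries could also be set side by side. There were 49 such DoubleTg cells, with a median of 34226 UMIs and 76.2 epithelial marker UMIs per 10,000, and 97 such TripleTg cells, with 27207 and 91.4. In these cells Ccl5 stood at 1285 CPM in DoubleTg and 425 CPM in TripleTg, Gzmb at 80.6 and 31.3 CPM, Pdcd1 at 90.1 and 22.9 CPM, and Cxcr6 at 76.6 and 24.9 CPM. These 4 chosen genes were lower in the TripleTg cells here as well, but no count over all genes was made for this comparison. The median UMIs per cell of the rule's own Cd3 genes were 9 in DoubleTg and 5 in TripleTg, and those of Ptprc 4 and 2. Cd8 UMIs were found in 59.2% of these DoubleTg cells and 43.3% of these TripleTg cells, but after thinning to 2000 UMIs only in 12.8% and 5.21%.

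The share of Cd3-positive cells with a CD8 UMI was lower in TripleTg, but this share also moved with the other RNA in the cells. A Cd8a or Cd8b1 UMI was found in 53 of 124 TripleTg cells (42.7%, 33.9 to 51.9) against 59.2% in DoubleTg, and after thinning in 8.13% against 38.0%. In the low-epithelial cells the shares were 11 of 27 (40.7%, 22.4 to 61.2) and 59.2%, and 18.5% and 42.0% after thinning. The interval of the TripleTg low-epithelial share before thinning included the DoubleTg value. Thinning was to a total that includes epithelial UMIs, and it took the DoubleTg cells with high epithelial UMIs from 59.2% to 12.8%, so the thinned shares do not compare the frequency of CD8 cells. Cd4 was found in 10.5% of TripleTg and 8.91% of DoubleTg Cd3-positive cells, and after thinning in 0.813% and 4.09%. A Cd4 UMI was also found in 13.5% of TripleTg and 0.787% of DoubleTg macrophages. Foxp3 was found in 4 TripleTg cells.

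The 6 Cd3-negative TripleTg cells carried NK transcripts beside epithelial ones. They held a median of 7.5 of the 19 NK receptors and factors (lowest 1, highest 9), or 2.5 after thinning, and 1 of the 6 held a UMI of the CD8 chains. Klra4 had 8 UMIs in 2 of them against 1 in the 124 Cd3-positive cells (interval of the log2 ratio 5.11 to 13.48). Against the TripleTg Cd3-positive cells, where 10.6% of 2948 genes were at least 2-fold higher and 8.55% lower, all 7 compared NK receptors and factors were higher (median 1.80). Genes such as Klra4, at 75.7 CPM in the 6 cells, reached 50 CPM only through these cells, which fixed their direction. Tyrobp was found in all 6 cells, Gzma in 3 and Ncr1 in 1. Their median epithelial marker level was 71.8 per 10,000, and 1 of the 6 was a low-epithelial cell. Of the 294 Lcn2 UMIs, an epithelial and neutrophil gene, 257 lay in 1 cell.

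Between the Cd3-negative cells of the genotypes, 24.1% of 3417 genes were at least 2-fold higher in TripleTg and 26.3% lower. NK receptors and factors were lower in TripleTg in 13 of 15 compared genes (median -1.68), and their sum was 8.99 against 46.9 per 10,000. Epithelial genes were higher in 6 of 6 (median 2.67), with sums of 191 against 27.8 per 10,000, and their part in the result was not tested. With 6 cells in 1 group, single cells set many of these values. Rgs1 had 13 UMIs against 401 and Plac8, a gene of NK and effector cells, 6 against 212.

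The secretory RNA of each tissue was found in nearly all members. Sbp, the secretory spermine-binding protein, had a UMI in 371 of 372 DoubleTg members (median 19.5 UMIs) and in none of the TripleTg members. Svs4 was found in all 130 TripleTg members (median 18 UMIs) and in 18 of 372 DoubleTg members. Sbp, Msmb, Sbpl and Pbsn were the lowest and Svs4 and Svs6 the highest named genes of the TripleTg to DoubleTg comparison of Cd3-positive cells, together with Defa22, Ltf and Hbb-bs on the high side. One member held 1401 of the 1604 Hbb-bs UMIs, a hemoglobin gene.

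Proliferation genes were detected together in few members, which does not limit how many were cycling. After thinning to totals that include epithelial UMIs, at least 3 of 12 proliferation genes were found in 2 of 342 DoubleTg Cd3-positive cells (0.585%), 2 of 24 Cd3-negative cells and 8 of 123 TripleTg Cd3-positive cells (6.50%, 2.85 to 12.4). The share in epithelial cells was 0.694% in DoubleTg and 3.56% in TripleTg. In the low-epithelial TripleTg Cd3-positive cells it was 2 of 27, and 87.9% of their Mki67 UMIs lay in 1 cell.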

How the data were processed

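Single-cell RNA-seq (10x 3′ chemistry) was made from 1 DoubleTg and 1 TripleTg mouse prostate tumor sample. The deposited values are raw UMI counts of 28000 features per barcode, made by the authors with Cell Ranger (6.0.2 per the submitters' processing notes, 6.1.1 in the header of the DoubleTg matrix) on mm10 with the human transgene sequences added. The TripleTg barcodes already lay within the limits on genes and mitochondrial UMIs when deposited, and the DoubleTg barcodes did not.

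UMIs of each gene were summed over the cells of a group and divided by the group's total to give CPM (Python 3.11.15, numpy 2.4.6, scipy 1.17.1, pandas 2.3.3). Log2 ratios have 95% conditional binomial intervals, and levels exact Poisson or binomial ones. A gene was compared at 50 CPM or more in either group, with sums under 3 UMIs set to 3, and called past 2-fold. There was no test, since each genotype had 1 library. No doublet caller was run. The gene ceiling, an alternative without members rich in other-class markers, and the low-epithelial members stand in its place. The ratios were tested on simulated data. Alternatives included TMM factors (edgeR 4.0.16 in R 4.3.3), thinning to 2000 UMIs per cell and other member limits. Thinning left out 6 DoubleTg and 1 TripleTg Cd3-positive cells below 2000 UMIs.

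Members, markers and gene lists were chosen with earlier results of these data known. Named genes are those of 26 lists and the 10 highest and 10 lowest log2 ratios of each comparison by genotype or Cd3 status, leaving out genes without a name. A few of these genes are not reported here. Reads were mapped to a genome of 1 strain while the mice were of mixed background, and counts of near-identical families (Klra, Klrc, Gzm, Svs, Hbb) are uncertain.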

Additional observations from a re-analysis of the deposited data

How the results depend on the processing

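No paired analysis was possible because each genotype had 1 library, and no test was run. Members were 2.84% of DoubleTg and 1.022% of TripleTg cells with at least 3 rule genes (then 100% Cd3-positive in both), 2.208% and 0.04214% without members at 10 or more UMIs of 25 other-class markers per 10000 (100% Cd3-positive in TripleTg, 4 cells), 3.038% and 0.295% under 20 epithelial UMIs per 10000, and 2.323% and 0.2387% after each cell was thinned to 2000 UMIs (95.83% Cd3-positive in DoubleTg). Between the genotypes, 840 genes were past 2-fold in Cd3-positive cells, 1888 without other-class members, 1350 under 20 epithelial UMIs, 1389 after thinning and 4233 with no filter on level. In Cd3-negative cells there were 1721, then 2759 under 20 epithelial UMIs and 3249 after thinning. Between Cd3-negative and Cd3-positive cells there were 698 in DoubleTg, 416 under 20 epithelial UMIs and 8072 with no filter, and 565 in TripleTg, 2596 under 20 epithelial UMIs, 2996 after thinning, 1162 as means over cells, 10060 with no filter and 1083 without each gene's largest cell. In TripleTg the split of 313 higher and 252 lower became 183 and 405 with edgeR's TMM factors, and 54 and 1029 without the largest cells. In DoubleTg 293 higher and 405 lower became 271 and 227 as means over cells, and 132 and 545 without the largest cells. For the genotypes in Cd3-negative cells, 822 higher and 899 lower became 372 and 1145 without the largest cells. Few or thinned cells put more genes at the floor of 3 UMIs, so these counts are not read as depth effects. In Cd3-positive cells between the genotypes, Ncr1 turned from -1.93 to 0.2316 with 3 rule genes, 2.691 without other-class members, 0.1666 under 20 epithelial UMIs and 0.7384 after thinning (1 TripleTg UMI among all members and 0 in the low-epithelial ones, so the floor of 3 UMIs sets its sign there), Klre1 to 0.03904 without other-class members and Tyrobp to 0.07743 under 20 epithelial UMIs. The cause was not tested. The low-epithelial limit, the T cell receptor signalling scale and the removal of largest cells were chosen after seeing the data. With 3 rule genes no Cd3-negative cells remained, and without other-class members none in TripleTg, so those comparisons could not be run. With 1 library per genotype, differences between animals cannot be measured.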

Other observations

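Erdr1 separated the libraries in T and NK, epithelial and macrophage cells. It stood at 78.3 CPM in DoubleTg Cd3-positive cells, found in 149 of 348 cells, and had 0 UMIs in the 124 TripleTg ones. In epithelial cells it stood at 69.0 CPM in DoubleTg and 0.142 CPM in TripleTg, and in macrophages at 113 and 0.423 CPM. The human MET transgene, which is driven in epithelium, had a UMI in 79 of 372 DoubleTg and 43 of 130 TripleTg members, and in 43 of 322 and 3 of 28 low-epithelial members.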
